A study of Mus musculus with 8 samples.

Results

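The genes described here encode integrins and other cell adhesion molecules, 35 genes taken by name out of 21991 genes with exons in the deposited tables. They are 16 integrin alpha subunits, 7 integrin beta subunits and 12 adhesion molecules of other families. RNA came from 2 cell fractions sorted from the bone marrow of C57BL/6 mice aged 8 to 10 weeks, with 4 libraries of each. Both fractions are labelled as lineage-negative cells carrying Sca1, c-Kit and CD150. The CD34-negative one is labelled HSC (hematopoietic stem cell) and the CD34-positive one HPC, in common use for hematopoietic progenitor cell. No genotype or treatment other than the sort is given, and the extraction protocol, which names 5000 sorted cells, speaks of HSC only. The labels of all 8 libraries give hematopoietic stem cells as the source, and the groups follow the titles, with which the labelled cell type and surface markers go. Nothing in the labels says that libraries came from separate mice, and each p-value therefore covers only the spread among these 8 samples, part of which may be technical.

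Integrins are receptors made of 1 alpha and 1 beta chain, and the pair decides which matrix protein or counter-receptor is bound. Blood stem and progenitor cells use them, with selectins and immunoglobulin-family molecules, to lodge in the marrow and to leave it. The beta2 integrins are the receptors of leukocytes, the beta1 integrins bind fibronectin, laminin and collagen as well as VCAM-1, and junctional adhesion molecules (JAMs) bind one another and some integrins. Levels are given as CPM, reads per 1000000 exon reads after TMM scaling of the libraries, or as RPKM, which also divides by exon length and so allows genes to be compared with each other. In bulk samples, fewer cells of a type and less RNA per cell cannot be told apart.

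The libraries held 16291733 to 20564901 exon reads. Cd34 was lower in HSC, at 120.2 ± 15.4 against 1276 ± 55.9 CPM, and Slamf1, the gene of CD150, was higher, at 37.6 ± 6.02 against 3.14 ± 0.736 CPM. In HPC, labelled CD150-positive, Slamf1 RNA stood at 0.794 ± 0.185 RPKM beside a median of 6.49 RPKM over all genes tested, a low RNA level for a fraction labelled positive for the protein. Ly6a, the gene of Sca1, was higher in HSC (131 ± 16.0 against 72.1 ± 8.02 CPM), and Kit had no call (924 ± 185 against 746 ± 66.4 CPM, edgeR adjusted p = 0.08). Of the exon reads of Cd34 and Ly6a, 45.5% and 50.2% were uniquely placed. Where a gene had 0 reads in a library, up to 3 reads' worth could have been missed (0.149 to 0.179 CPM), which covers counting error only. Whether PCR copies were removed before counting is not given in the sources used here.

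Of the 35 genes, 31 had enough reads to be tested, and HSC and HPC libraries did not overlap for 15 of them (48.4%), beside 36.7% of all 12751 genes tested. The quasi-likelihood test of edgeR, with Benjamini-Hochberg adjustment over all genes at 0.05, called 16 of the 31, beside 37.1% of all genes. Higher in HSC were 8 (25.8%, beside 19.6% of all genes) and lower were 8 (25.8%, beside 17.6%). The median log2 change over the 31 was −0.07 and over all genes 0.00. Of 13 tested alpha subunits 3 were higher and 4 lower, and of 6 beta subunits 0 were higher and 2 lower (0 higher also at an unadjusted p under 0.05 in edgeR and in DESeq2). Among the other 12 adhesion genes, 5 were higher and 2 lower. The plot of levels by library shows each group, and the plot of changes ranks the genes.

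**Figure D1:**
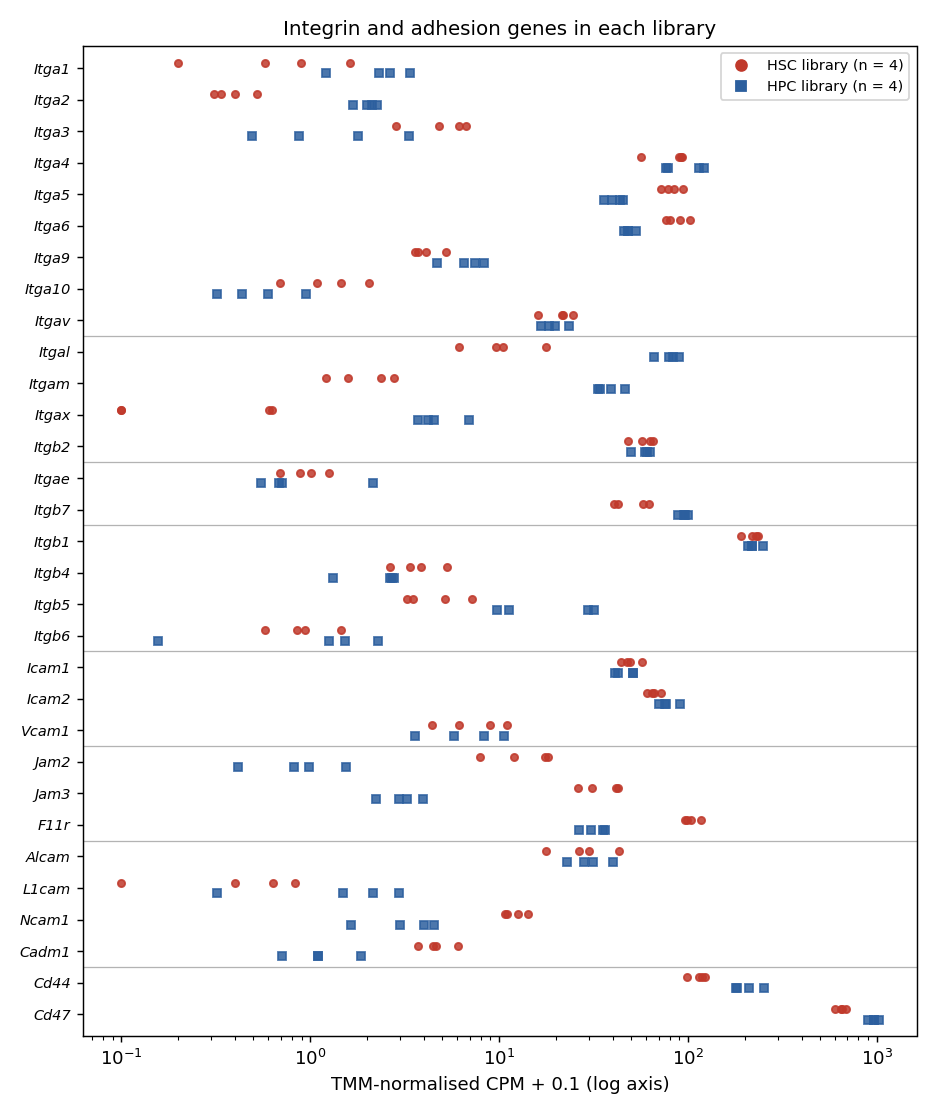
Level of the 31 tested genes in each library, as TMM-normalised CPM plus 0.1 on a log axis; circles are HSC libraries and squares HPC libraries (n = 4 each), and grey lines part the groups of genes by role. The HSC and HPC points lie apart for the 3 JAM genes and for Itgal, Itgam and Itgax, and lie on each other for Itgb1 and Itgb2.

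**Figure D2:**
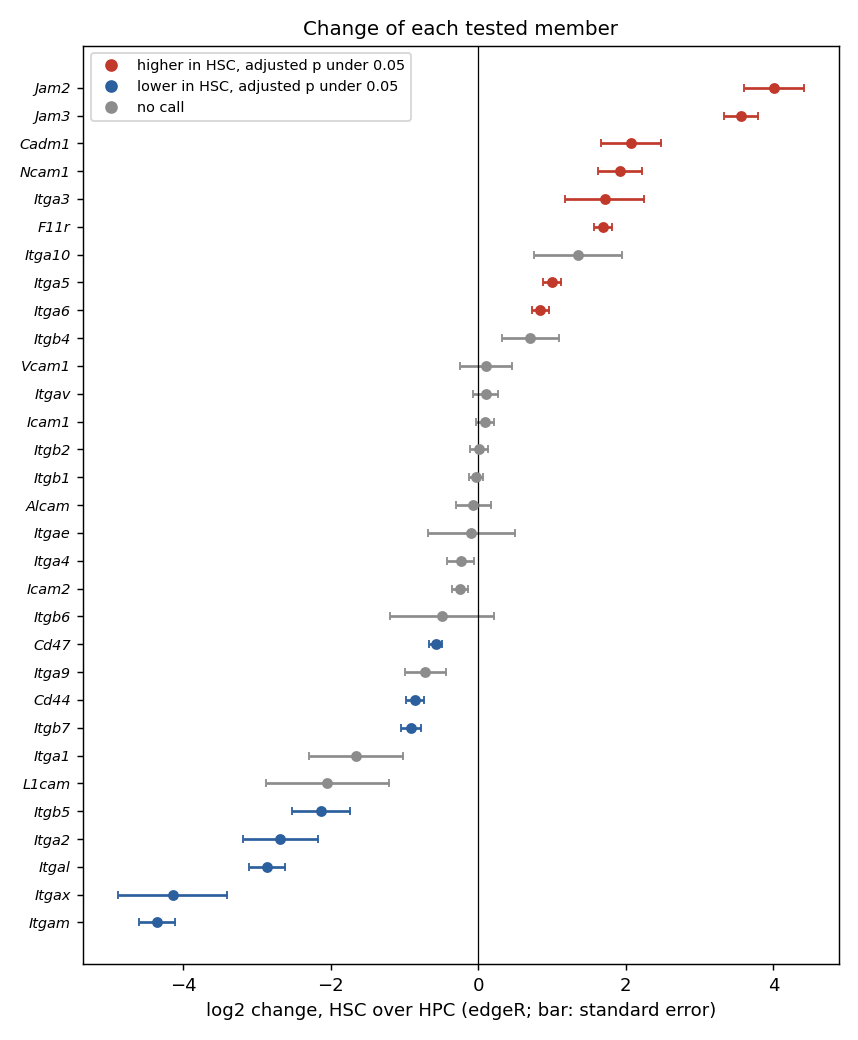
Change of each tested gene, HSC over HPC on the log2 scale, with its standard error (edgeR); red marks the 8 genes called higher, blue the 8 called lower and grey the 15 without a call. Jam2 (4.01) and Itgam (−4.35) stand at the ends.

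Promoters of 23 of the 35 genes were found in the RefSeq table used here (GRCm38.p6, 250 bases before to 50 after the start of the gene). They are shown for 3 genes that were lower in HSC, of which 2 are neighbours on chromosome 7, and for 2 that were higher, so that genes moving in opposite directions can be compared. Capitals mark GAGGAA on either strand (TTCCTC where the match is on the other strand), the core to which PU.1 and other ETS factors can bind. In the order printed the windows are chr7:128062390-128062689 (plus strand), chr7:128129300-128129599 (plus), chr15:102231886-102232185 (minus), chr1:171437311-171437610 (plus) and chr15:103366742-103367041 (minus). The Itgb7 window lies within the gene as the deposited tables span it, since they place its start farther upstream.
Itgam, lower in HSC: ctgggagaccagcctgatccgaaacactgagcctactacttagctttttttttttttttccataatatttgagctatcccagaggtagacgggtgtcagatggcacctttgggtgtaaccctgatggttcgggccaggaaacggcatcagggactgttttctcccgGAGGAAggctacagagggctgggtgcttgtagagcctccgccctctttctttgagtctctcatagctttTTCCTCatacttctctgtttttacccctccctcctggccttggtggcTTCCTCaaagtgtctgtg
Itgax, lower in HSC: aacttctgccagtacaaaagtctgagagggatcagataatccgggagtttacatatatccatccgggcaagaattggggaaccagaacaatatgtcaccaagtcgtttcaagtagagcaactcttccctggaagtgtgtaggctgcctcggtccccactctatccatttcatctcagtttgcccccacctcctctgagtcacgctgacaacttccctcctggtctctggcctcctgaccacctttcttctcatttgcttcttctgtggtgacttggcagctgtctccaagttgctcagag
Itgb7, lower in HSC: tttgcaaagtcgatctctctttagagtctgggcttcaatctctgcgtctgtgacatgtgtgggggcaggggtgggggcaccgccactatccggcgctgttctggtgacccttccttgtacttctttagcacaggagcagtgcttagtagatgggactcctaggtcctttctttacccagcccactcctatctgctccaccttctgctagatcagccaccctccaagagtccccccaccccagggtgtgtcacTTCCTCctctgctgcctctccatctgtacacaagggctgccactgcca
F11r, higher in HSC: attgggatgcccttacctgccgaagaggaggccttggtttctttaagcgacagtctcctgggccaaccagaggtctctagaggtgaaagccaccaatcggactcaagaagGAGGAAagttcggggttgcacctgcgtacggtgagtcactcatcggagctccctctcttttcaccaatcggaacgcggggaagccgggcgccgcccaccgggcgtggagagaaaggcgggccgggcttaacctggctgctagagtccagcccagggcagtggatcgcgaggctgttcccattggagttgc
Itga5, higher in HSC: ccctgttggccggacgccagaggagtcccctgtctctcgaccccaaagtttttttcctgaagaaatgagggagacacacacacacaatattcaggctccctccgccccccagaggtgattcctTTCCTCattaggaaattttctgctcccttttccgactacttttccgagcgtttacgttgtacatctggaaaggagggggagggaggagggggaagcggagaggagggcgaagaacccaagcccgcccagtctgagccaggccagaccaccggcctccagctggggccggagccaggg
The Itgam window held 3 matches, the Itgb7, F11r and Itga5 windows 1 each, and the Itgax window 0. At least 1 match was found in 10 of the 23 promoters (43.5%), beside 28.3% of the 27025 promoters in the table. By direction, it was in 2 of 3 promoters of genes higher in HSC, 3 of 7 of genes lower, 4 of 10 of genes without a call and 1 of 3 of genes not tested. These matches describe letters only.

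All 3 JAM genes were higher in HSC, and Jam2 and Jam3 had the largest increases among the 31. Jam2 (NCBI gene 67374, chromosome 16, 84774123 to 84826380, mm10) encodes JAM-B, which binds JAM-C on neighbouring cells. It stood at 18.0, 17.4, 11.9 and 7.81 CPM in HSC replicates 1 to 4 and at 0.317, 1.44, 0.724 and 0.884 CPM in the HPC replicates. Every HSC library lay above every HPC library, and the means of 13.8 ± 4.84 and 0.842 ± 0.465 CPM (SD, n = 4 each) were 16.4-fold apart (log2 4.01 ± 0.40, SE, edgeR adjusted p = 2.3e-06). Jam3 (NCBI gene 83964, chromosome 9, 27097384 to 27155421) encodes JAM-C itself. Its levels were 42.8, 41.6, 26.2 and 31.0 CPM in HSC and 3.86, 2.14, 2.84 and 3.15 CPM in HPC, again without overlap. In GENCODE 589 of the Jam3 exon bases lie over Gm48796 on the other strand, whose reads cannot be told apart without strand. The Jam3 means, 35.4 ± 8.11 and 3.0 ± 0.714 CPM, differed 11.8-fold (log2 3.56 ± 0.23, edgeR adjusted p = 2.1e-08). F11r (NCBI gene 16456, chromosome 1, 171437561 to 171464593), the gene of JAM-A, a ligand of the integrin LFA-1, was the most abundant of the family in both fractions. The 4 HSC libraries gave 103, 99.01, 117 and 96.4 CPM and the 4 HPC libraries 26.3, 35.3, 36.5 and 30.7 CPM. The HSC mean was 3.23-fold higher (log2 1.69 ± 0.12, edgeR adjusted p = 9.2e-08). Per exon length the 3 genes summed to 46.6 ± 2.92 RPKM in HSC and 10.5 ± 1.07 RPKM in HPC, and F11r made up 67.2% ± 6.26 of that sum in HSC and 88.3% ± 3.27 in HPC. Jam3 made up 28.7% ± 5.39 and 10.7% ± 3.71, and Jam2 4.16% ± 1.23 and 1.08% ± 0.548.

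Genes that mark endothelial cells, in which JAM proteins are also found, were looked at beside the JAM genes. Of 9 such markers, 8 were tested, 5 were higher in HSC and 0 lower, and their summed level was 185 to 235 CPM in HSC and 72.3 to 86.7 CPM in HPC. Most of the sum was Tie1, a receptor also known in blood stem cells (170.3 ± 21.7 against 52.1 ± 1.97 CPM). Cdh5, the cadherin that defines endothelial junctions, was at 0.922 ± 0.747 and 0.644 ± 0.456 CPM and had no call (edgeR adjusted p = 0.7). Outside this list, Pecam1 and Cd34, which endothelial cells also express, were lower in HSC. Pecam1 was at 46.8 ± 7.76 against 119 ± 7.15 CPM (log2 −1.34 ± 0.12, edgeR adjusted p = 7.4e-07). The part of endothelial cells in the JAM values was not tested.

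The alpha chains of the beta2 integrins were lower in HSC, while their common beta chain had no call. Itgam (NCBI gene 16409, chromosome 7, 128062640 to 128118491) encodes CD11b, the alpha chain of Mac-1 on myeloid cells. It was at 2.27, 2.67, 1.11 and 1.48 CPM in HSC and at 46.6, 39.0, 34.0 and 33.4 CPM in HPC, with no overlap. The Itgam mean was 20.4-fold lower in HSC (log2 −4.35 ± 0.25, edgeR adjusted p = 7.6e-09). GENCODE places 3450 exon bases of Itgam under a second gene model, Gm49368, on the same strand. Itgax (NCBI gene 16411, chromosome 7, 128129530 to 128150657), the gene of CD11c and a dendritic cell marker, had 0, 0, 10 and 10 reads in HSC replicates 1 to 4 and 129, 83, 79 and 66 reads in the HPC replicates. In CPM the HPC libraries stood at 6.82, 4.12, 4.40 and 3.65, and the last pair of HSC libraries at 0.503 and 0.527. Its fitted log2 change was −4.14 ± 0.74 (edgeR adjusted p = 0.00047), a value that leans on few reads in HSC. Itgal (NCBI gene 16408, chromosome 7, 127296230 to 127335137) encodes CD11a, the alpha chain of LFA-1, the lymphocyte receptor for ICAM-1 and ICAM-2. HSC libraries gave 9.54, 17.7, 10.4 and 6.06 CPM and HPC libraries 89.6, 83.2, 79.5 and 66.1 CPM. Itgal was thus 7.29-fold lower in HSC (log2 −2.86 ± 0.25, edgeR adjusted p = 4.6e-07), with HSC replicate 2 the highest of its group. Itgb2 (NCBI gene 16414, chromosome 10, 77530329 to 77565681) encodes CD18, the beta chain that all 3 need. Its HSC libraries read 48.4, 62.9, 65.2 and 56.8 CPM and its HPC libraries 60.6, 58.9, 62.6 and 49.7 CPM, so the groups covered the same range. The log2 change of Itgb2 was 0.01 ± 0.12 (edgeR adjusted p = 0.96).

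Set side by side per exon length, the beta2 chains were in different proportion in the 2 fractions. Itgal, Itgam and Itgax together summed to 1.85 ± 0.697 RPKM in HSC (1.18 to 2.83) and to 17.2 ± 2.67 RPKM in HPC (14.3 to 20.6). Itgb2 stood at 14.8 ± 2.13 RPKM in HSC and 14.1 ± 1.46 RPKM in HPC. The beta chain was therefore in excess of the 3 alpha chains in HSC at the RNA level and near their sum in HPC. Itgal made up 79.8% ± 6.29 of the alpha sum in HSC and 61.2% ± 2.19 in HPC, and Itgam 16.7% ± 5.14 and 34.0% ± 1.78. As log2 ratios, Itgal to Itgb2 was −3.39 ± 0.58 in HSC and −0.42 ± 0.10 in HPC, and Itgam to Itgb2 was −5.70 ± 0.68 and −1.27 ± 0.21. In both pairs, as in 8 of the 15 pairs of subunits compared, no library of one fraction overlapped the other (two-sided exact permutation test p = 0.0286 each, the smallest that 4 against 4 allows). Adjusted over the 15 pairs, that became 0.0536 and did not pass 0.05.

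**Figure D3:**
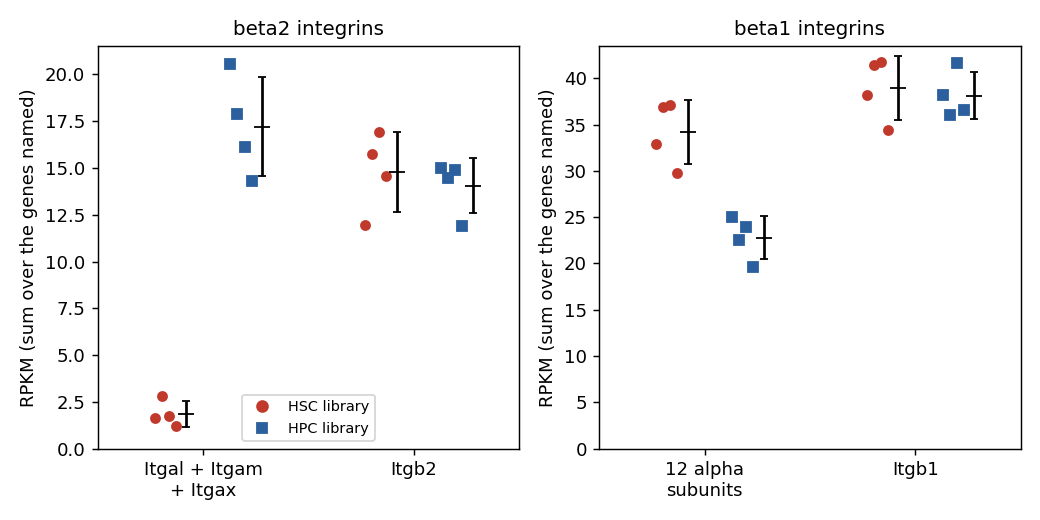
RPKM of the alpha subunits, summed, and of the beta subunit they share, in each library, for the beta2 integrins (left) and the beta1 integrins (right); circles are HSC libraries, squares HPC libraries, and black bars the mean ± SD (n = 4). The beta2 alpha sum (Itgal, Itgam and Itgax) is 1.18 to 2.83 RPKM in HSC and 14.3 to 20.6 in HPC. Itgb2 and Itgb1 cover the same range in both.

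Markers of myeloid and dendritic cells were looked at beside these genes. Of 10 macrophage markers, 8 were tested, 0 were higher and 2 lower in HSC, with summed levels of 24.2 to 35.7 CPM in HSC and 56.4 to 86.6 CPM in HPC. The most abundant was Cd68, at 11.3 ± 2.16 and 26.4 ± 7.09 CPM. Of 11 neutrophil and monocyte markers, 7 were tested and 0 were called in either direction by edgeR (DESeq2 called 1 lower, and 3 were lower at an unadjusted p under 0.05 in edgeR). Their sums overlapped (177 to 279 and 187 to 376 CPM, mostly Lyz2), and Ly6g had 0 reads in all 8 libraries. The dendritic list of 6 genes, which includes Itgax, summed to 25.4 to 35.4 CPM in HSC and 650.3 to 820.0 CPM in HPC. Most of the sum was Flt3, a receptor also known on blood progenitors (20.9 ± 3.27 and 744 ± 75.3 CPM). The 2 called lower were Flt3 and Itgax itself. Clec9a was the 1 called higher (2.42 ± 0.891 and 0.236 ± 0.195 CPM), with only 6.09% of its exon reads uniquely placed. No call was made for Siglech (4.45 ± 1.66 and 4.31 ± 1.32 CPM), Cd209a (1.48 ± 1.04 and 2.06 ± 1.08 CPM) and Xcr1 (0.271 ± 0.267 and 0.558 ± 0.385 CPM). The part of these cells in the beta2 values was not tested.

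Among alpha subunits that pair with beta1, the fibronectin receptor chain Itga5 and the laminin receptor chains Itga6 and Itga3 were higher in HSC. Itga5 (NCBI gene 16402, chromosome 15, 103344286 to 103366791) encodes the alpha chain of the fibronectin receptor VLA-5. It stood at 72.3, 84.3, 93.7 and 78.7 CPM in HSC and at 43.7, 45.3, 39.7 and 35.7 CPM in HPC. The groups did not overlap, and the HSC mean was 2.0-fold that of HPC (log2 1.0 ± 0.12, edgeR adjusted p = 1.1e-05). Itga6 (NCBI gene 16403, chromosome 2, 71786886 to 71858427) encodes CD49f, a laminin receptor chain used to enrich stem cells. Its values were 91.2, 102, 80.1 and 76.4 CPM in HSC and 46.0, 53.2, 48.0 and 48.3 CPM in HPC. The HSC mean was 1.79-fold higher (log2 0.84 ± 0.11, edgeR adjusted p = 4e-05), again without overlap. Itga3, another laminin receptor chain, was low in both, at 6.02, 4.70, 6.59 and 2.74 CPM in HSC and at 3.22, 1.69, 0.390 and 0.773 CPM in HPC. Its libraries overlapped and its call was the least firm of the 16 (log2 1.71 ± 0.54, edgeR adjusted p = 0.021): the change was 2.37 without HPC replicate 1, which was the highest of its group, and the adjusted p became 0.052, 0.055 and 0.059 without HPC replicate 4, HSC replicate 1 and HSC replicate 3.

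The collagen receptor chain Itga2 was the only alpha subunit of this group called lower in HSC. Itga2 (NCBI gene 16398, chromosome 13, 114835912 to 114932041), known as CD49b, gave 0.238, 0.209, 0.302 and 0.422 CPM in HSC and 1.59, 2.04, 1.89 and 2.15 CPM in HPC. These are 4 to 8 and 30 to 41 reads per library, without overlap (log2 −2.68 ± 0.51, edgeR adjusted p = 0.0007). Its neighbour Itga1 (NCBI gene 109700, chromosome 13, 114958079 to 115101964), also a collagen receptor chain, stood at 0.477, 1.52, 0.101 and 0.791 CPM in HSC and at 3.28, 2.53, 1.11 and 2.21 CPM in HPC. It had no call (log2 −1.65 ± 0.64, edgeR adjusted p = 0.055). The change was −2.32 without HSC replicate 2 (adjusted p = 0.02) and −1.89 without HPC replicate 3 (0.042), −0.51 on gene reads (0.12) and −0.27 on intron reads (0.48). It was called lower in DESeq2 (−1.66, 0.036), with voom weights (−1.80, 0.035) and on exon-exon reads (−1.99, 0.033). The Itga1 libraries overlapped at HSC replicate 2 and HPC replicate 3. Pelo, with 5496 gene reads over all libraries, overlaps the span of Itga1 on the same strand. In GENCODE, 451 Itga1 exon bases are shared with Gm49395 on the same strand. The part of either gene in the Itga1 values was not tested.

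Itga4, the VLA-4 chain that binds VCAM-1 and fibronectin and is the best known homing integrin of stem cells, had no call. It was at 91.9, 90.1, 93.6 and 56.5 CPM in HSC and at 114, 78.4, 122 and 76.5 CPM in HPC (log2 −0.24 ± 0.18, edgeR adjusted p = 0.33). HSC replicate 4 lay well below the other 3. Only 72.3% of its exon reads were uniquely placed, and 127 of its exon bases lie over Cerkl on the other strand. The alpha V chain Itgav, a vitronectin receptor, read 21.8, 24.4, 21.5 and 16.0 CPM in HSC and 19.8, 18.2, 23.3 and 16.6 CPM in HPC, with overlap and no call (log2 0.10 ± 0.17). Itga9 was at 3.99, 5.12, 3.62 and 3.48 CPM in HSC and at 7.40, 4.62, 8.25 and 6.41 CPM in HPC. It missed the threshold narrowly (log2 −0.72 ± 0.27, edgeR adjusted p = 0.054). The collagen receptor chain Itga10 was sparse, at 0.596, 0.993, 1.36 and 1.95 CPM in HSC and at 0.846, 0.497, 0.334 and 0.221 CPM in HPC, with no call (log2 1.35 ± 0.59, edgeR adjusted p = 0.089). In GENCODE, 1739 Itga10 exon bases are shared with Gm42957 on the same strand. Itga7, Itga8 and Itga11 were not tested, since they had 7, 12 and 4 reads over all 8 libraries.

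Itgb1 (NCBI gene 16412, chromosome 8, 128685654 to 128733579), the beta chain common to these receptors, was the most abundant integrin RNA per length in both fractions. Its levels were 219.5, 235, 228 and 191 CPM in HSC and 219.6, 209, 249 and 217 CPM in HPC, with a log2 change of −0.03 ± 0.10 (edgeR adjusted p = 0.82). Per exon length it stood at 38.9 ± 3.42 RPKM in HSC and 38.1 ± 2.54 RPKM in HPC. The 12 alpha chains that can pair with it, some of which also join other beta chains, summed to 34.2 ± 3.50 RPKM in HSC and 22.8 ± 2.34 RPKM in HPC, without overlap (29.8 to 37.2 and 19.6 to 25.0). Itga5 was 40.3% ± 4.24 of this alpha sum in HSC and 28.9% ± 2.69 in HPC. Itga4 was 18.3% ± 2.67 in HSC and 31.0% ± 5.02 in HPC, and Itga6 30.9% ± 2.90 and 25.0% ± 3.30. The leading alpha chain was thus Itga5 in HSC, while in HPC the shares of Itga4, Itga5 and Itga6 lay within their spread of each other. As log2 ratios to Itgb1, Itga5 was −1.50 ± 0.16 in HSC and −2.54 ± 0.22 in HPC, and Itga6 −1.89 ± 0.13 and −2.75 ± 0.17 (two-sided exact permutation test p = 0.0286 each, adjusted 0.0536).

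Of the 6 beta chains tested among the 35 genes, beta7 and beta5 were called, and both were lower in HSC. The beta3 chain Itgb3, taken from another list and given further below, was called higher (log2 1.11 ± 0.17, edgeR adjusted p = 0.00013). Itgb7 (NCBI gene 16421, chromosome 15, 102215994 to 102233405) pairs with alpha 4 in the receptor for the gut addressin MAdCAM-1. It was at 42.6, 62.0, 57.5 and 40.3 CPM in HSC and at 99.6, 96.2, 88.3 and 95.1 CPM in HPC. The groups lay apart, 1.87-fold lower in HSC (log2 −0.90 ± 0.14, edgeR adjusted p = 0.00011). The Itga4 to Itgb7 log2 ratio was −0.08 ± 0.28 in HSC and −0.77 ± 0.38 in HPC (two-sided exact permutation test p = 0.0286, adjusted 0.0536). Itgae, the other partner of beta7 and known as CD103, had 0.596, 0.784, 0.905 and 1.16 CPM in HSC and 0.581, 0.447, 2.06 and 0.608 CPM in HPC. It had no call, and 52.6% of its exon reads were uniquely placed. Its span overlaps that of Gsg2 on the other strand, but GENCODE lists no shared exon bases for it.

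Itgb5 (NCBI gene 16419, chromosome 16, 33829665 to 33949338), a vitronectin receptor chain that pairs with alpha V, split the HPC libraries. In HSC it gave 3.16, 7.11, 3.42 and 5.06 CPM, and in HPC 11.2, 29.6, 9.70 and 31.7 CPM. HPC replicates 2 and 4 were about level with each other and well above replicates 1 and 3, which still lay above all HSC libraries. The mean was 4.38-fold lower in HSC (log2 −2.13 ± 0.39, edgeR adjusted p = 0.00056). The Itgav to Itgb5 log2 ratio was 1.06 ± 0.58 in HSC and −1.05 ± 1.10 in HPC. Itgb4, the partner of alpha 6 in epithelia, was at 5.19, 3.76, 3.27 and 2.53 CPM in HSC and at 1.22, 2.53, 2.67 and 2.60 CPM in HPC, without a call (log2 0.71 ± 0.39, edgeR adjusted p = 0.17). The Itgb4 span overlaps that of Galk1 on the other strand, but GENCODE lists no exon bases shared with it. In GENCODE, 537 Itgb4 exon bases lie over B230344G16Rik on the other strand. Itgb6, an epithelial chain, was at 0.477, 1.36, 0.754 and 0.844 CPM in HSC and at 1.16, 2.19, 0.0557 and 1.44 CPM in HPC, without a call. Itgb8 had 0 reads in all 8 libraries.

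The 3 counter-receptors of integrins that belong to the immunoglobulin family had no call in edgeR on exon reads (0 also in DESeq2). At an unadjusted p under 0.05 in edgeR, 1 passed, Icam2. On exon-exon reads Icam2 was called lower (log2 −0.34, edgeR adjusted p = 0.036). Icam1, a ligand of LFA-1 and Mac-1, stood at 49.1, 44.2, 56.8 and 47.4 CPM in HSC and at 51.0, 42.3, 51.1 and 41.2 CPM in HPC (log2 0.09 ± 0.12, edgeR adjusted p = 0.62). In GENCODE, 511 Icam1 exon bases lie over Gm47079 and 61 Vcam1 exon bases over Gm43109, both on the other strand. Icam2, also an LFA-1 ligand, stood at 66.5, 64.3, 61.0 and 72.3 CPM in HSC and at 76.2, 75.7, 69.9 and 90.7 CPM in HPC, with a small overlap (log2 −0.24 ± 0.11, edgeR adjusted p = 0.095). Vcam1, the VLA-4 ligand, was at 4.29, 6.01, 10.9 and 8.81 CPM in HSC and at 10.5, 3.48, 8.19 and 5.69 CPM in HPC, with wide spread in both (log2 0.11 ± 0.35). Of LFA-1 and its ligands among these genes, then, the alpha chain gene Itgal was 7.29-fold lower in HSC and F11r 3.23-fold higher, while the ranges of Icam1 and Icam2 overlapped.

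Of 4 immunoglobulin-family molecules of cell-cell contact, 2 were higher in HSC. Ncam1 (NCBI gene 17967, chromosome 9, 49502129 to 49799427), the neural cell adhesion molecule CD56, was at 12.6, 10.6, 14.1 and 10.97 CPM in HSC and at 4.44, 1.54, 3.90 and 2.87 CPM in HPC. GENCODE places 417 of its exon bases over Gm11149 on the other strand. The libraries lay apart and the HSC mean was 3.78-fold higher (log2 1.92 ± 0.30, edgeR adjusted p = 0.00013); on exon-exon reads alone the change was 1.0 and the call was lost (edgeR adjusted p = 0.22). Cadm1 (NCBI gene 54725, chromosome 9, 47530170 to 47862280), a nectin-like molecule, gave 3.64, 4.55, 4.38 and 5.96 CPM in HSC and 1.0, 0.994, 0.613 and 1.77 CPM in HPC, without overlap. The HSC mean was 4.23-fold higher (log2 2.08 ± 0.41, edgeR adjusted p = 0.00094). Alcam, the CD6 ligand CD166, spread over 43.3, 29.7, 26.4 and 17.7 CPM in HSC and 40.1, 28.0, 31.5 and 22.8 CPM in HPC and had no call (log2 −0.07 ± 0.23, edgeR adjusted p = 0.85). L1cam, another neural adhesion molecule, had 0.537, 0.732, 0.302 and 0 CPM in HSC and 2.85, 1.39, 0.223 and 2.04 CPM in HPC. With 0 reads in HSC replicate 4 and few in HPC replicate 3, it had no call (log2 −2.04 ± 0.83, edgeR adjusted p = 0.068).

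Cd44 and Cd47, both widespread on blood cells, were lower in HSC. Cd44 (NCBI gene 12505, chromosome 2, 102811141 to 102901669) encodes the receptor for hyaluronan. It was at 123, 119, 115 and 98.9 CPM in HSC and at 209.7, 183, 253 and 180.5 CPM in HPC, and the groups did not overlap. The means differed 1.81-fold (log2 −0.86 ± 0.12, edgeR adjusted p = 4.5e-05). Cd47 (NCBI gene 16423, chromosome 16, 49855253 to 49912424), which binds thrombospondin, associates with integrins and restrains phagocytosis, was the most abundant of the 31 in both fractions. It gave 648, 655, 604 and 687 CPM in HSC and 902, 964, 970.0 and 1024 CPM in HPC. The fall was the smallest of the 16 calls, 1.49-fold (log2 −0.57 ± 0.09, edgeR adjusted p = 0.00012), and it did not pass a test that required a fold of 1.5 (edgeR adjusted p = 0.91).

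Ordered by RPKM, the first 3 genes were the same in the 2 fractions, with exchanges lower down. In HSC, Cd47 (153 ± 7.66 RPKM) was followed by Itgb1 (38.9 ± 3.42), Icam2 (31.4 ± 2.27) and F11r (31.3 ± 3.18). Icam2 and F11r were within their spread of each other, as were Cd44, Itgb2, Icam1, Itga5 and Jam3 (13.4 to 14.8 RPKM). In HPC, Cd47 (218 ± 8.71 RPKM) was followed by Itgb1 (38.1 ± 2.54) and Icam2 (35.5 ± 3.93), which were within their spread, and by Cd44 (25.7 ± 3.96). F11r stood 4th of 31 in HSC and 9th in HPC (9.26 ± 1.27 RPKM). Jam3 stood 9th in HSC and 18th in HPC, and Itgam 23rd in HSC and 12th in HPC. The median RPKM of all genes tested was 6.70 in HSC and 6.49 in HPC.

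Reads within introns, which can come from unspliced RNA, gave a second readout from the same libraries. Of the 16 genes called on exon reads, 15 could be tested on intron reads, all 15 had the same direction and 12 were called. The intron change was 1.74 for F11r, 1.18 for Itga5 and −2.05 for Itgb5, close to the exon values of 1.69, 1.0 and −2.13. For Jam2, Jam3 and Itgam it was smaller than on exons, at 2.41, 2.09 and −2.97 (edgeR adjusted p = 0.00011, 0.00011 and 1.4e-06). Itga2, Itga3 and Cadm1 were not called on intron reads, with changes of −1.02, 0.40 and 0.68. Among genes without a call on exons, 3 were called lower on intron reads: Alcam (−0.60, adjusted p = 0.016), Itgae (−0.98, adjusted p = 0.017) and Itga9 (−0.65, adjusted p = 0.042). Exon and intron reads of a library share its RNA and depth, so the readouts are not independent.

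**Figure D4:**
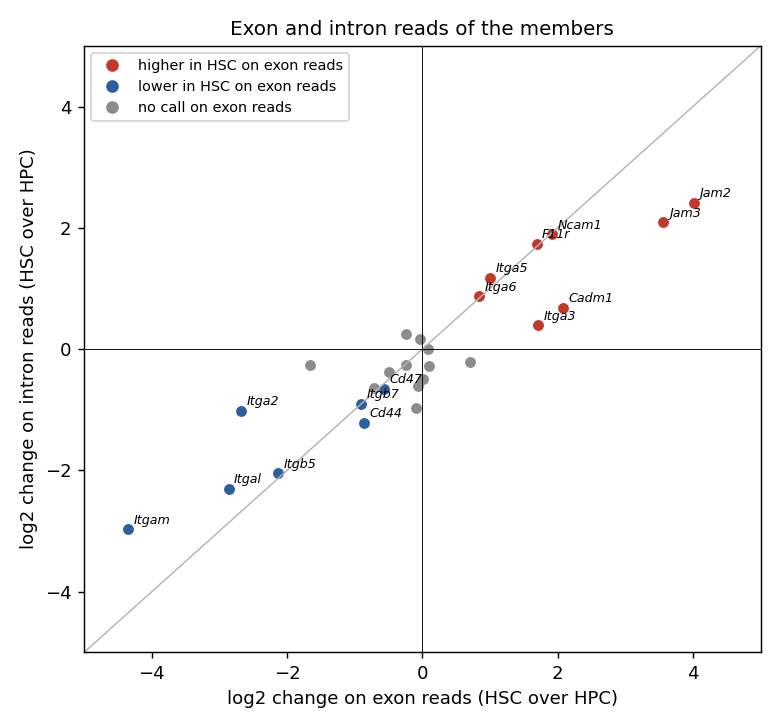
Log2 change, HSC over HPC, on exon reads (x axis) and on intron reads (y axis) for the genes tested on both; colours give the call on exon reads and the grey line marks equal change. All 15 called genes shown lie on the same side of 0 on both axes, and Jam2, Jam3, Itga3, Cadm1, Itga2, Itgal and Itgam lie nearer to 0 on intron reads.

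The other genes of the adhesion pathway were taken from 6 lists. Of their genes 80 were tested, 21 were higher (26.3%, beside 19.6% of all genes) and 22 lower (27.5%, beside 17.6%) in HSC, and the median change was −0.02. The counts of each list stand against the same shares of all genes. Among 3 other integrin subunits tested, the beta3 chain Itgb3 was higher, at 33.0 ± 3.52 CPM in HSC and at 15.3 ± 3.41 CPM in HPC (log2 1.11 ± 0.17, edgeR adjusted p = 0.00013). Its platelet partner Itga2b was lower, at 76.4 ± 10.3 and 93.8 ± 6.09 CPM (log2 −0.29 ± 0.11, edgeR adjusted p = 0.049). The Itga2b call was lost under upper quartile scaling (adjusted p = 0.13) and without any of HPC replicates 1, 2 and 3 or HSC replicates 1 and 2 (0.077 to 0.15). It was lost too on gene reads (0.11), with no count filter (0.053) and with a filter of 50 reads (0.057), and on intron reads the change turned to 0.041 (0.94). The Itgb3 call held under all 22 alternatives.

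Of 16 tested activators of integrins, which act between chemokine or antigen receptors and the integrin tail, 3 were higher and 7 lower in HSC. Rasgrp2, the exchange factor that loads RAP1, was at 70.1 ± 3.10 and 206 ± 11.7 CPM (log2 −1.55 ± 0.09, edgeR adjusted p = 6.8e-09). Only 13.9% of its exon reads were uniquely placed, and its call held under all 22 alternatives. Its substrate Rap1a was also lower (log2 −0.52 ± 0.09), as were the adaptor Fyb (log2 −0.77 ± 0.13) and the exchange factor Vav1 (log2 −0.54 ± 0.09). Rap1b, of the same list, was at 270 ± 22.4 and 252 ± 27.0 CPM and had no call (log2 0.10 ± 0.10, edgeR adjusted p = 0.47). The kinase Ptk2b, also called PYK2, was higher, at 166 ± 15.9 and 96.1 ± 6.90 CPM (log2 0.79 ± 0.10, edgeR adjusted p = 1.7e-05). Among 9 inhibitors, 2 were higher and 4 lower. Rap1gap, which switches RAP1 off, was 6.07-fold higher in HSC, at 13.9 ± 1.39 and 2.29 ± 0.281 CPM (log2 2.60 ± 0.22, edgeR adjusted p = 3.8e-07). The adaptor Dok1 was higher (log2 0.76 ± 0.11), whereas its relative Dok2 (log2 −0.94 ± 0.09), the filamin Flna (log2 −0.72 ± 0.16) and the RAP1 inactivators Sipa1 (log2 −0.40 ± 0.12) and Rasa3 (log2 −0.40 ± 0.13) were lower. The calls of Sipa1 and Rasa3 were lost without HPC replicate 1 (adjusted p = 0.055 and 0.084) or HSC replicate 1 (0.053 and 0.064), and that of Rasa3 also without HPC replicate 2 (0.065) or HSC replicate 4 (0.055) and under upper quartile scaling (0.061).

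Focal adhesion scaffolds and kinases went both ways, with 6 of 24 higher and 6 lower. Ptk2, the focal adhesion kinase, was 3.67-fold higher in HSC, at 18.4 ± 3.90 and 5.03 ± 1.96 CPM (log2 1.87 ± 0.26, edgeR adjusted p = 5.7e-05). Trip6 (log2 0.91 ± 0.13), Dock1 (log2 0.94 ± 0.21) and the parvin Parvb (log2 0.86 ± 0.19) were higher too. Parvg, the parvin of blood cells, was lower, at 144 ± 9.19 and 353 ± 23.1 CPM (log2 −1.29 ± 0.09, edgeR adjusted p = 5.7e-08). Lower as well were Zyx (log2 −0.72 ± 0.09), Lims1 (log2 −0.74 ± 0.09) and Git2 (log2 −0.57 ± 0.09).

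Matrix ligands were sparse, with 11 of 21 tested, 5 of them higher in HSC and 1 lower. The collagen IV chains Col4a2 (46.2 ± 5.65 and 19.4 ± 6.03 CPM, log2 1.25 ± 0.19) and Col4a1 (42.1 ± 7.93 and 18.8 ± 5.89 CPM, log2 1.16 ± 0.21) and the laminin chain Lamb2 (log2 1.21 ± 0.40) were higher (edgeR adjusted p = 0.00013, 0.00055 and 0.027). The Lamb2 call was lost without any of HPC replicates 2 and 4 or HSC replicates 1, 2 and 3 (adjusted p = 0.054 to 0.076), and on intron reads the change turned to −0.33 (adjusted p = 0.8). Stromal markers, of which only 2 of 8 had enough reads to test, summed to 9.54 to 25.4 CPM in HSC and 1.49 to 8.19 CPM in HPC, most of it Cxcl12 (10.0 ± 4.18 and 2.53 ± 2.53 CPM). Their part in the matrix values was not tested.

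Of 17 tested selectins, selectin ligands and other homing molecules, 4 were higher and 3 lower. The selectin ligand gene Selplg was lower, at 155 ± 7.55 and 349 ± 28.4 CPM (log2 −1.17 ± 0.09, edgeR adjusted p = 1.7e-07), as was Pecam1 (log2 −1.34 ± 0.12). Esam, an immunoglobulin-family molecule related to the JAMs, was 4.64-fold higher, at 117 ± 9.70 and 25.2 ± 2.94 CPM (log2 2.21 ± 0.12, edgeR adjusted p = 4.2e-09). The tetraspanins Cd9 (log2 1.05 ± 0.11) and Cd81 (log2 0.73 ± 0.11) and the CD99 relative Cd99l2 (log2 0.56 ± 0.14) were higher.

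Markers of further cell types were read beside these lists. The T and NK list had 5 of 8 tested genes higher and 1 lower in HSC, the lower one being Nkg7, which dominated its sum (91.7 to 118 CPM in HSC and 295 to 384 CPM in HPC). B and plasma cell markers had 2 of 6 higher, and sums of 123 to 196 and 97.1 to 195 CPM, led by Jchain. Megakaryocyte markers had 5 of 8 higher and 1 lower, and sums of 210.0 to 291 and 166 to 235 CPM, led by Itga2b. Red cell markers had 3 of 6 higher, and sums of 171 to 434 and 38.9 to 144 CPM, led by Hba-a1. Their part in the adhesion gene values was not tested.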

How the data were processed

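RNA was extracted with ISOGEN, made into cDNA with the SMARTer Pico kit, amplified by 18 cycles of PCR and made into Nextera XT libraries, per the labels' protocols. The genome build was mm10 (per the submitters' processing notes). For aligner, counter and use of strand: not given in the sources used here. Each deposited table has 48737 rows. Exon, intron and exon-exon reads were deposited as raw counts, per the file headers. RPKM, deposited beside them, divides exon reads by exon length and by a constant of each library; it served for levels only.

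Rows were summed per NCBI gene ID. Total exon reads were tested with edgeR 4.0.16 (filterByExpr, TMM, quasi-likelihood F test, no covariate, HSC over HPC), adjusted by Benjamini-Hochberg over 12751 genes at 0.05. Standard errors are changes over the root of F. The members and gene lists were chosen with earlier results of these data known; of 219 list entries 2 symbols matched no row. All members are accounted for; of each pathway list, up to 4 called genes per direction were named by smallest adjusted p, if they averaged 5 CPM or more (1 gene taken by this rule is not reported here). The subunit pairs, subunit sums, promoter windows and motif were chosen after seeing the data. The edgeR script was tested on simulated data. Alternatives were other scalings, filters, tools (DESeq2 1.42.0, limma 3.58.1), thresholds, read classes, the replicate block and leaving out each library.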

Additional observations from a re-analysis of the deposited data

Results flagged for a closer look

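Over the 31 tested genes, the 62 groups of 4 libraries were each searched for 1 library far from the other 3, and 3 were found, where chance alone gives about 1 in 20. Itga4 was at 56.5 CPM in HSC replicate 4, while the other HSC libraries were at 90.1 to 93.6 CPM. Itgae was at 2.06 CPM in HPC replicate 3, beside 0.447 to 0.608 CPM in the other HPC libraries. Itgb4 was at 1.22 CPM in HPC replicate 1, beside 2.53 to 2.68 CPM in the others. None of the 3 genes was called in the comparison of HSC and HPC.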

How the results depend on the processing

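Of the 16 calls, 11 held under all 22 alternatives that could be run for them; Itgax gave no value on intron reads and Itga2 none under a filter of 50 reads in 4 libraries. The counts of called members stayed within 1.5 times of 8 and 8 in each alternative. Exceptions among the calls were Itga3 (given with its values, and lost also at a threshold of 0.01, under a required fold of 1.5 with adjusted p 0.078 and on intron reads with 0.73), Cd47 (required fold of 1.5), Ncam1 (exon-exon reads), and Itga2 and Cadm1 (intron reads); the cause was not tested. With a required fold of 1.5, 1296 genes were higher and 803 lower, and 12 and 8 in the pathway lists. On intron reads these were 1393 and 1274, and 13 and 13. Pathway genes whose calls were lost on intron reads were Vav1 (−0.13, edgeR adjusted p = 0.52), Dok1 (0.52, 0.26), Dok2 (−0.68, 0.19) and Flna (−0.65, 0.14). Lost there too were Parvb (0.55, 0.44), Cd99l2 (0.58, 0.24), Cd81 (0.79, 0.052), Zyx (−0.55, 0.054), Sipa1 (−0.14, 0.66) and Rasa3 (−0.20, 0.41). The calls of Rap1a, Fyb, Lims1, Git2 and Dock1 were lost only under the required fold. Itga1 and Itga9, uncalled, were called lower in 6 alternatives each. L1cam was called lower in 3, Itgae in 2, and Alcam and Icam2 in 1 each. Itga10 was called higher in 1 (gene reads, 1.53, edgeR adjusted p = 0.03). Only uncalled genes among the members changed sign. Upper quartile scaling gave Itgb1 0.044 and Alcam 0.018, and voom weights gave Itgb2 −0.0041, Itgae 0.13, Itgb1 0.010, Itgb6 0.022 and Alcam 0.015. Gene reads gave Itgav −0.21 and Itgb2 −0.043, and exon-exon reads gave Itgav −0.10. Intron reads gave Itgav −0.28, Itgb2 −0.49, Itgb1 0.17, Itgb4 −0.21, Icam1 −0.0043 and Icam2 0.25. Leaving out each library in turn gave ranges of −0.31 to 0.11 for Alcam, −0.11 to 0.37 for Vcam1, −0.33 to 0.65 for Itgae, −0.076 to 0.021 for Itgb1 and −0.064 to 0.089 for Itgb2. The difference in log2 ratio became −0.10 for Itgav to Itgb1 and −0.12 for Itga6 to Itgb4 on exon-exon reads, and for the latter ranged from −0.0098 to 0.35 with a library left out.

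With the replicate number as a block, 8 members were higher and 9 lower, Itga1 was called (−1.93, edgeR adjusted p = 0.032) and Itgae moved to 0.12. Same-numbered libraries correlated at 0.04, −0.18, 0.24 and 0.41 in their deviations from the group means. Not every library correlated best with its own number. These correlations cannot decide whether the numbers pair the samples, since deviations of 4 libraries from their own mean are not independent. Depth limits Itgax in HSC and the genes under 1 CPM.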
